A study of Mus musculus with 27 samples.

Results

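Osr1, Osr2, Six2, Six4, Eya1, Sall1, Wt1, Meox1 and Cited1 are transcription factors and transcription cofactors of the cells that give rise to the nephron. These 9 genes were chosen by their symbols, for their known place in the kidney, with earlier results of these data known. All 9 have a row among the 24953 genes of the expression table. The cells were mK4, a mouse line derived from the metanephric mesenchyme, the embryonic tissue that condenses around the ureteric bud and turns into nephron epithelium. RNA-seq on poly(A) RNA covered 3 groups of 3 libraries each. The control group was the parental mK4 line, labelled WT. Runx1KO cells were derived from it with CRISPR-Cas9 by deleting the Runx1 exon that holds the start codon, and ZebDKO cells by deleting the start codon exons of both Zeb1 and Zeb2. Cells were grown in medium with serum until close to confluency. ATAC-seq, which maps open chromatin, and ChIP-seq for the related factors Runx1 and Runx2 were used as lists of regions, for control and Runx1KO cells. Of the Runx1 ChIP-seq only the list of control cells was used, and chromatin of ZebDKO cells was not analysed here. Knockout lines were grown from selected clones. How many clones were sequenced is not given in the sources used here, so an effect of the genotype and an effect of the clone cannot be told apart, and the p-values below measure the spread between libraries.

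Osr1 and Osr2 are paralogous zinc finger factors, and Osr1 is among the earliest markers of the mesoderm from which kidneys form. Eya1 is a phosphatase and coactivator that lacks a DNA binding domain of its own and acts with homeodomain factors such as Six2 and Six4. Six2 and Cited1 mark the self-renewing progenitors of the cap mesenchyme, Meox1 is a homeobox gene of the same cells, Sall1 is a zinc finger factor that recruits the NuRD corepressor complex, and Wt1 is a zinc finger factor needed for the survival of the mesenchyme and, later, for the podocyte. Runx1 is a DNA binding factor that recognises the core sequence TGTGGT, and Zeb1 and Zeb2 are repressors of epithelial genes that bind E-boxes of the form CAGGTA or CAGGTG.

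Of the 9 members, 5 were expressed and 4 were absent. Levels are given in TPM, the share of a gene among all transcripts of a library after scaling for gene length. In control libraries Osr1 stood at 70.9, 64.1 and 64.3 TPM and Sall1 at 53.2, 49.5 and 53.7 TPM. Eya1 followed with 16, 16.6 and 15.9 TPM. Osr2, at 10.4, 10.4 and 11.2 TPM, and Six4, at 9.3, 8.2 and 8.7 TPM, were the lowest of the expressed members. No neighbours in this order overlapped in the control libraries.

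Six2, Wt1, Meox1 and Cited1 stayed under 1 TPM in all 9 libraries. Six2 was listed at 0 in the 3 control libraries and reached at most 0.2 TPM in a ZebDKO library. The highest value of Wt1 was 0.3 TPM in a control library, that of Cited1 was 0.4 TPM in control and ZebDKO libraries, and that of Meox1 was 0.6 TPM in a control library. With TPM given to 1 decimal and no read numbers, differences among such values were not tested. The progenitor markers Six2 and Cited1 were thus at or near 0 in every group of a line labelled as metanephric mesenchyme. Pax2, a paired box factor of the same tissue, stood between 310.2 and 315.7 TPM and Hoxa11 between 212.4 and 217.4 TPM in control cells. These were the highest control values among 32 other listed genes of this tissue. Of the 32, 15 stayed under 1 TPM in all 9 libraries, among them Foxc2, Hoxd11, Crym and Uncx.

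**Figure D1:**
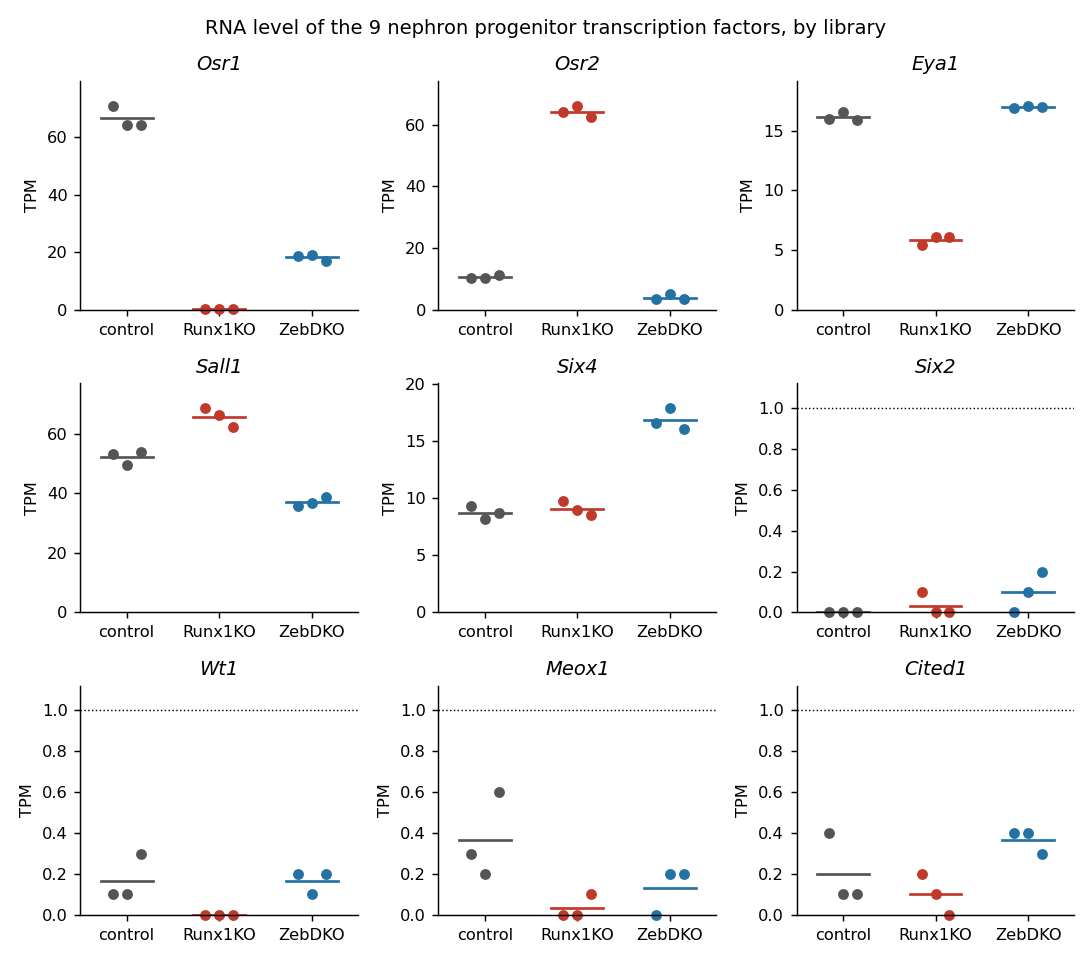
RNA level in TPM (vertical axis, linear, different range in each panel) of the 9 members in 3 control, 3 Runx1KO and 3 ZebDKO libraries. Points are libraries and bars are group means. Osr1 lies at 0.3 to 0.5 TPM in Runx1KO and at 17.1 to 18.9 TPM in ZebDKO, Osr2 at 62.5 to 66.2 TPM in Runx1KO, and Six2, Wt1, Meox1 and Cited1 lie under the dotted line at 1 TPM.

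The targeted genes do not test the labels in this table, because a deleted exon is only part of a gene's TPM, and groups are named here by their labels. Neither Runx1 in Runx1KO nor Zeb1 in ZebDKO libraries was below the control range. Runx1 was at 18.7, 15.6 and 17.9 TPM in control, 30.3, 30.1 and 28.5 TPM in Runx1KO and 9.4, 10.5 and 10.4 TPM in ZebDKO libraries. Zeb1 was at 14.2 to 15.6 TPM in control, 0.1 to 0.2 TPM in Runx1KO and 14.8 to 16.8 TPM in ZebDKO libraries, and Zeb2 at 4.9 to 5.5, 0.2 and 1.6 to 1.8 TPM. The libraries resembled each other in depth as far as TPM shows it, with 12541 to 12697 genes reaching 1 TPM and 18.6 to 19.7% of all TPM in the 100 most abundant genes. Pearson correlations of log2(TPM + 1) between libraries of 1 group ran from 0.994 to 0.996 across genes, and no library stood apart.

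The first comparison set Runx1KO cells against control cells. Osr1 was nearly silenced, Osr2 rose and Eya1 fell, whereas Sall1 and Six4 stayed within 2-fold. Of the 9 members, 5 passed the filter, which asked for 3 or more of the 6 libraries to reach 1 TPM, and of these 1 was called higher and 2 lower. A gene was called when its change on log2(TPM + 1) exceeded 2-fold with an adjusted p under 0.05, by limma with Benjamini-Hochberg adjustment over all genes tested. By this rule 13.0% of the 13067 genes tested were called, 7.91% higher and 5.1% lower. For 4 of the 5 members the libraries of the groups did not overlap, as for 73.7% of all genes tested.

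Osr1 was at 70.9, 64.1 and 64.3 TPM in control and at 0.3, 0.5 and 0.4 TPM in Runx1KO libraries. The groups lay far apart, and every Runx1KO value was under the limit taken here for absence. Osr1 thus passed the filter only through the control libraries. The paper already names Osr1 as downregulated in Runx1KO cells, with regions near it that lost accessibility. Osr1 fell by 5.59 on the log2 scale (SE 0.0721, adjusted p = 6.94e-09), and only 3 of the 13067 genes tested had a lower value. The ratio of the mean TPM was 166-fold, which the added 1 TPM compresses on the log2 scale. In bulk RNA, fewer cells with Osr1 and less Osr1 RNA per cell cannot be told apart.

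Osr2 moved the opposite way, from 10.4, 10.4 and 11.2 TPM in control to 64, 66.2 and 62.5 TPM in Runx1KO libraries. All Runx1KO values exceeded all control values. The rise was 2.48 on the log2 scale (SE 0.0435, adjusted p = 2.06e-08), or 6.02-fold in mean TPM. It was the 286th highest of the 13067 changes.

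Eya1 fell from 16, 16.6 and 15.9 TPM to 5.4, 6.1 and 6.1 TPM, a change of -1.32 on the log2 scale (SE 0.0578, adjusted p = 1.45e-06). The mean level was 2.76-fold lower, and the libraries of the groups did not overlap.

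Sall1 was at 53.2, 49.5 and 53.7 TPM in control and 68.6, 66.3 and 62.3 TPM in Runx1KO libraries. Its difference of 0.33 on the log2 scale (SE 0.0485, adjusted p = 0.000725) passed the p limit but not the 2-fold limit, as did much of the transcriptome, since 70.5% of the genes tested had an adjusted p under 0.05. Six4, at 9.8, 9 and 8.5 TPM in Runx1KO libraries, overlapped its control values and differed by 0.05 (SE 0.0692, adjusted p = 0.519).

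The second comparison set ZebDKO cells against the same control libraries. Osr1 and Osr2 both fell, and Sall1 and Six4 differed in opposite directions by less than 2-fold. Eya1 did not pass the test before the scaling given below. Of the same 5 members tested, 2 were called, both lower, where 14.8% of the 12974 genes tested were called, 7.48% higher and 7.27% lower. All 5 had groups that did not overlap, as had 81.0% of genes, and 4 had an adjusted p under 0.05, as had 79.4%. Osr1 was at 18.7, 18.9 and 17.1 TPM in ZebDKO libraries, below every control value and above every Runx1KO value. It fell by 1.81 on the log2 scale (SE 0.0581, adjusted p = 2.41e-07), which was 3.64-fold in mean TPM. Osr2 was at 3.4, 5.3 and 3.4 TPM, below every control value, and fell by 1.23 (SE 0.141, adjusted p = 0.000119). ZebDKO replicate 2 was the highest of the 3, and the change was -1.41 without it.

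Six4 was at 16.6, 17.9 and 16.1 TPM in ZebDKO libraries, above its control values of 9.3, 8.2 and 8.7 TPM, without reaching the 2-fold limit (log2 difference 0.88, SE 0.0642, adjusted p = 1.16e-05). The call on Six4 depends on scaling. The median gene lay at -0.18 in this comparison, and scaling the libraries to a common median moved it by 0.183. Changes relative to the typical gene are higher by about this amount, which varies with the level of a gene. Six4 was then called, at 1.06 with median-ratio scaling and 1.08 with quantile normalization. The same scaling moved the share of higher genes among all genes called from 50.7% to 64.0%. Sall1 was at 35.6, 36.8 and 38.7 TPM, below every control value, with a difference of -0.48 (SE 0.0487, adjusted p = 6.07e-05). Eya1 was at 16.9, 17.1 and 17 TPM, just above its highest control value, with a difference of 0.07 (SE 0.042, adjusted p = 0.168). Scaling changed this too. Eya1 then passed the p limit but not the 2-fold limit, at 0.25 with median-ratio scaling (adjusted p = 0.00101). With quantile normalization it was at 0.27 (adjusted p = 0.000886).

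**Figure D2:**
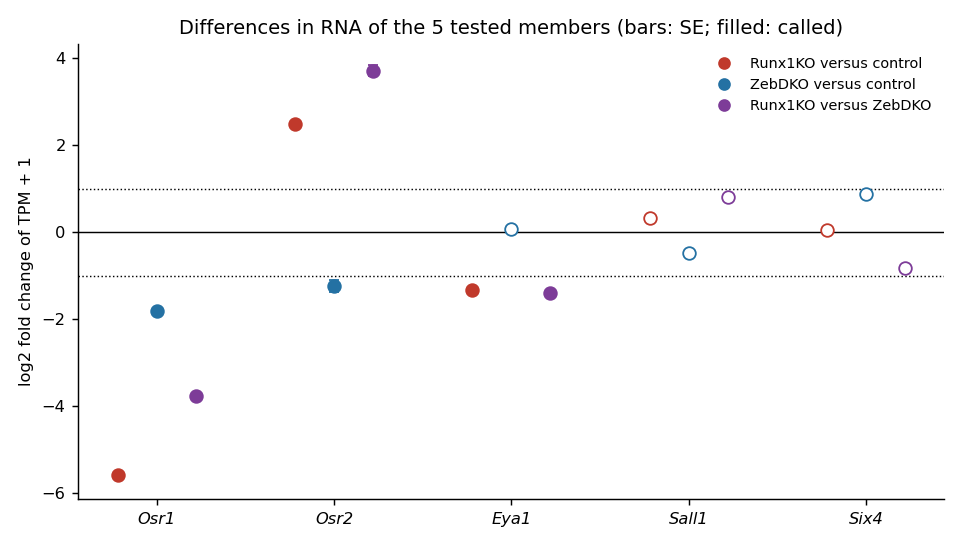
Log2 fold change of TPM + 1 (vertical axis) of the 5 tested members in the 3 comparisons, with standard errors as bars, most of them smaller than the points. Filled points passed both limits, and dotted lines mark 2-fold. Osr2 lies at 2.48 in Runx1KO and at -1.23 in ZebDKO against the same control libraries, and Eya1 at -1.32 and 0.07.

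The lines were then compared directly, since both comparisons above share their control libraries and a difference between them needs its own test. Osr1, Osr2 and Eya1 differed between the lines and were called, 3 of the 5 members tested, 1 higher and 2 lower in Runx1KO cells, against 15.8% of 13071 genes, 9.2% higher and 6.59% lower. All 5 passed the p limit alone and had groups that did not overlap, as did 80.0% and 81.7% of genes. Osr1 was lower in Runx1KO than in ZebDKO cells by 3.78 on the log2 scale (log2 difference -3.78, SE 0.0783, adjusted p = 4.36e-08), a ratio of 45.6 in mean TPM. Osr2 was higher by 3.72 (SE 0.136, adjusted p = 4.3e-07), with mean levels of 64.2 and 4.03 TPM, and was the 30th highest of all differences. Eya1 was lower in Runx1KO cells, with a difference of -1.39 (SE 0.0565, adjusted p = 6.81e-07). Sall1, at 0.81 (SE 0.0483, adjusted p = 3.95e-06), and Six4, at -0.82 (SE 0.0651, adjusted p = 1.63e-05), passed the p limit only. Quantile normalization placed Six4 at -1.05, past the 2-fold limit. Median-ratio scaling moved the median gene by -0.148 here, and the share of higher genes among those called from 58.3% to 46.6%. A pattern of higher in Runx1KO and lower in ZebDKO cells, as Osr2 has, was found in 16 of the 12697 genes tested in both comparisons, or 0.126%. A pattern of lower in both, as Osr1 has, was found in 277 of them, or 2.18%.

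The order of the members differed between groups. In Runx1KO cells Sall1 (mean 65.7 TPM) and Osr2 (64.2 TPM) overlapped at the top, followed by Six4 (9.1 TPM), Eya1 (5.87 TPM) and Osr1 (0.4 TPM). In ZebDKO cells Sall1 (37.0 TPM) was highest, Osr1 (18.2 TPM), Eya1 (17.0 TPM) and Six4 (16.9 TPM) overlapped with their neighbours in the order, and Osr2 (4.03 TPM) was lowest. The order between genes depends on the lengths taken for TPM. A further deposited table of the control and Runx1KO libraries gives control means 1.99 times lower for Osr1 and 2.01 times lower for Sall1, and Eya1 then overlaps Sall1 at 25.0 and 25.9 TPM. Within a gene the change held in that table, where the control mean of Osr1 was 197-fold its Runx1KO mean and the Runx1KO mean of Osr2 was 6.15-fold its control mean.

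In Runx1KO cells the paralog Osr1 fell and Osr2 rose, while their sum moved less. The summed level was 81.3, 74.5 and 75.5 TPM in control and 64.3, 66.7 and 62.9 TPM in Runx1KO libraries, with means of 77.1 ± 3.67 and 64.6 ± 1.92 TPM (SD, n = 3). In ZebDKO libraries it was 22.1, 24.2 and 20.5 TPM. Osr1 made up 85.2 to 87.2% of the sum in control, 0.467 to 0.75% in Runx1KO and 78.1 to 84.6% in ZebDKO libraries. These shares were chosen after the values of both genes were seen and were not tested.

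Genes of the most similar profile were searched for each called member, as those with the smallest root mean square difference of log2(TPM + 1), centred on each gene's mean, over the 9 libraries and among 13374 genes. For Osr1 they were Col6a2, a collagen VI chain (root mean square difference 0.301), Nog, the secreted BMP antagonist noggin (0.365), and Dpysl3 (0.376). Nog had mean levels of 31.9 TPM in control, 0.167 TPM in Runx1KO and 10.2 TPM in ZebDKO cells. For Osr2 they were Areg, the EGF receptor ligand amphiregulin (0.265), Gng13 (0.268) and Fmr1nb (0.295). Areg stood at 30.8, 159 and 9.1 TPM in the same order. For Eya1 they were Atat1, the tubulin acetyltransferase (0.0423), the prolyl hydroxylase gene Egln3 (0.049) and the paired box gene Pax3 (0.0587).

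Chromatin around the members was described from the region lists of the authors, which sort ATAC-seq regions into Runx1-dependent (open in control and lost in Runx1KO cells), Runx1KO-induced (gained) and Runx1-independent. A region was assigned to a gene when its middle lay in the gene's basal domain, 5 kb upstream to 1 kb downstream of the start, or in the extension of this domain to the neighbouring protein-coding genes, up to 1000 kb. These lists hold no values per replicate, so nothing in them could be tested. Runx1-dependent regions were assigned to 6 of the 9 members, where 30.7% of 18673 genes of the table with a position had one. Runx1KO-induced regions were assigned to 5 members, with 37.8% of all genes, Runx1-independent regions to 8, with 78.0%, and Runx1 peaks of control cells to 3, with 41.0%. Runx2 peaks were assigned to 6 members in control and 6 in Runx1KO cells, with 58.4% and 54.6% of all genes.

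Osr1 had more Runx1-dependent regions than any other gene. It lies on chromosome 12 (9581248 to 9588305, plus strand, mouse build mm9, ENSMUSG00000048387.7) in a gene desert, 544.4 kb from the start of Ttc32 on one side and 795.5 kb from the start of Nt5c1b on the other. Of 30 ATAC-seq regions in this domain, 26 were Runx1-dependent, 1 was Runx1KO-induced and 3 were Runx1-independent. No other of the 18673 genes had as many, and the next highest had 22. The length of the domain enters this count, and 267 genes have a domain at least as long. Among 809 genes with a domain of at least 1000 kb the median was 0 and the 95th percentile 10. The share of Runx1-dependent regions, 86.7%, was also the highest among the 581 genes with at least 20 ATAC-seq regions, whose median was 19.2%. The limit of 20 was set after the values were seen.

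The 26 regions spanned the domain from -484.1 to 755.2 kb, counted from the transcription start with upstream as negative. Of these, 13 lay upstream, 12 downstream and 1 at the start itself, 0.1 kb from it and overlapping the Osr1 UTR. All others were intergenic, and only 2 of the 26 lay within 100 kb of the start. The neighbour Ttc32, a gene of the tetratricopeptide repeat family, was at 11.2 to 13.2 TPM in control and 15.9 to 20.4 TPM in Runx1KO libraries (log2 difference 0.54, adjusted p = 0.00195), and was not called. Nt5c1b did not exceed 0.1 TPM in any group and was not tested.

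**Figure D3:**
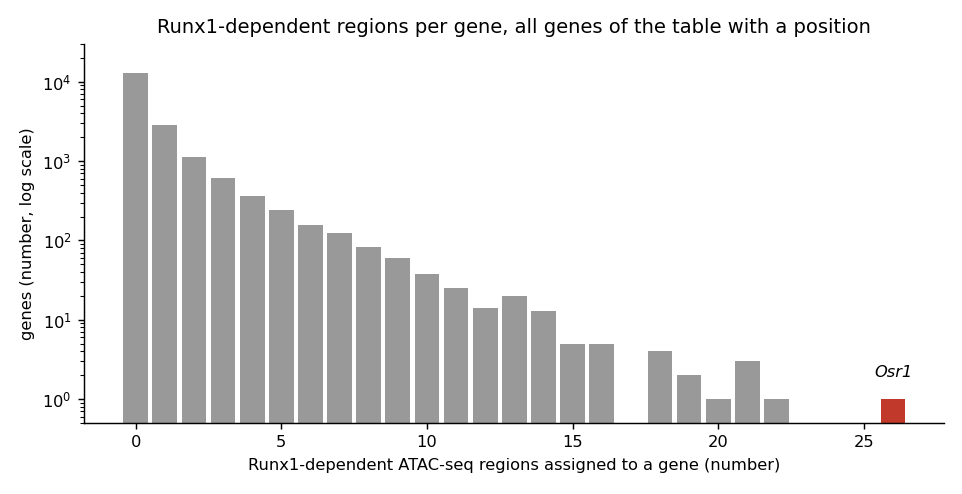
Number of genes (vertical axis, log scale) by the number of Runx1-dependent ATAC-seq regions assigned to a gene (horizontal axis), over 18673 genes. The bar at 26 is Osr1, the only gene with more than 22, and 12937 genes have none.

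Of the 26 regions, 3 carried Runx1 peaks in control cells, at 281.6, 324.1 and 657.2 kb downstream of the start. The enrichment at their summits over local background, as called by the authors on pooled replicates and thus without an error, was 7.3, 8.47 and 8.76-fold, where the median over all 10187 Runx1 peaks was 4.45-fold. Only 2.29% of Runx1 peaks were at least as enriched as the one at 657.2 kb. Runx2 peaks covered the same places in control cells, with 8.22, 8.87 and 11.2-fold, and Runx2 peaks were still called there in Runx1KO cells, with 5.28, 7.72 and 8.94-fold. The regions were classed as lost in Runx1KO cells nonetheless. Fold values of different lists come from different libraries and were not compared by a test.

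Osr1 had 7 Runx1 peaks in all, 5 of them overlapped by a Runx2 peak in control cells and 5 in Runx1KO cells. Over all Runx1 peaks these shares were 61.9% and 53.3%. The other 4 had between 3.5 and 4.67-fold enrichment and met no ATAC-seq region assigned to the gene. Runx2 had 12 peaks in control and 10 in Runx1KO cells, and overlapped 4 and 6 of the 26 Runx1-dependent regions. Of the 12 control peaks, 6 were overlapped by a Runx2 peak of Runx1KO cells, where 62.0% of all control Runx2 peaks were. This difference was not tested. The Runx1-dependent regions with a Runx1 peak all met a Runx2 peak in Runx1KO cells, as given above. The paper describes potential enhancers near Osr1 at which Runx2 binding was limited once Runx1 was lost. Over the series, 11.8% of Runx1-dependent regions met a Runx1 peak and 21.5% a Runx2 peak of control cells, and 1.25% and 3.64% of Runx1KO-induced ones did.

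The sequences under the 3 Runx1 peaks show where Runx motifs lie in the bound DNA of the regions that lost accessibility. Each is a 300 bp window around the middle of the Runx1 peak on the plus strand of mm9, with matches to TGTGGT (Runx) and to CAGGTA or CAGGTG (Zeb) on either strand in capitals. These windows were chosen after the values were seen.
Osr1 +656.9 kb, chr12:10238029-10238328: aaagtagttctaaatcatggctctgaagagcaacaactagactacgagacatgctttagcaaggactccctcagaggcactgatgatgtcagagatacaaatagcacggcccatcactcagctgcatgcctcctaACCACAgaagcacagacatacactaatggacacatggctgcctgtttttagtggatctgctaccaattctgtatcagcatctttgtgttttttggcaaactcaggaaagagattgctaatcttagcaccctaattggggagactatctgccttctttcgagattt
Osr1 +324.1 kb, chr12:9905247-9905546: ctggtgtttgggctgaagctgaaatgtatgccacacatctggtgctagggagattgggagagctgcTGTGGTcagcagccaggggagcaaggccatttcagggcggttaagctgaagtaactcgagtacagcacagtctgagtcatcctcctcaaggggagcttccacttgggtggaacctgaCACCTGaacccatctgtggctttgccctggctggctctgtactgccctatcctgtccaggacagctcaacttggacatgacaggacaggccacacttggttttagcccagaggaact
Osr1 +281.9 kb, chr12:9862982-9863281: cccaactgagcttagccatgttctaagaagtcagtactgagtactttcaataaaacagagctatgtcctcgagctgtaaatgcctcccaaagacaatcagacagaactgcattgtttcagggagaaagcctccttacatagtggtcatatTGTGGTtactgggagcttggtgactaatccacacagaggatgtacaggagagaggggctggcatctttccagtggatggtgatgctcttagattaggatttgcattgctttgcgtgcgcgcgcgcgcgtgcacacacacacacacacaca
Each window holds 1 Runx match, read as ACCACA on the minus strand at 656.9 kb, and TGTGGT was in 38.2% of all windows around Runx1 peaks. The window at 324.1 kb also holds 1 Zeb match, read on the minus strand as CACCTG. Motifs were also counted over all ATAC-seq regions, in windows around the middle of the region, which can miss a ChIP-seq peak at its edge. The window at 657.2 kb, for example, held no Runx match. Of the 26 windows of this kind at Osr1, 12 hold TGTGGT (46.2%), as do 35.5% of all 8741 Runx1-dependent windows and 21.0% of the 9427 Runx1KO-induced ones. Zeb motifs were in 8 of the 26 (30.8%), against 18.7% of all Runx1-dependent windows, and the AP-1 motif TGACTCA, read as TGAGTCA on the opposite strand, in 6 (23.1%), against 32.4%. A match is a description and not a binding site.

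**Figure D4:**
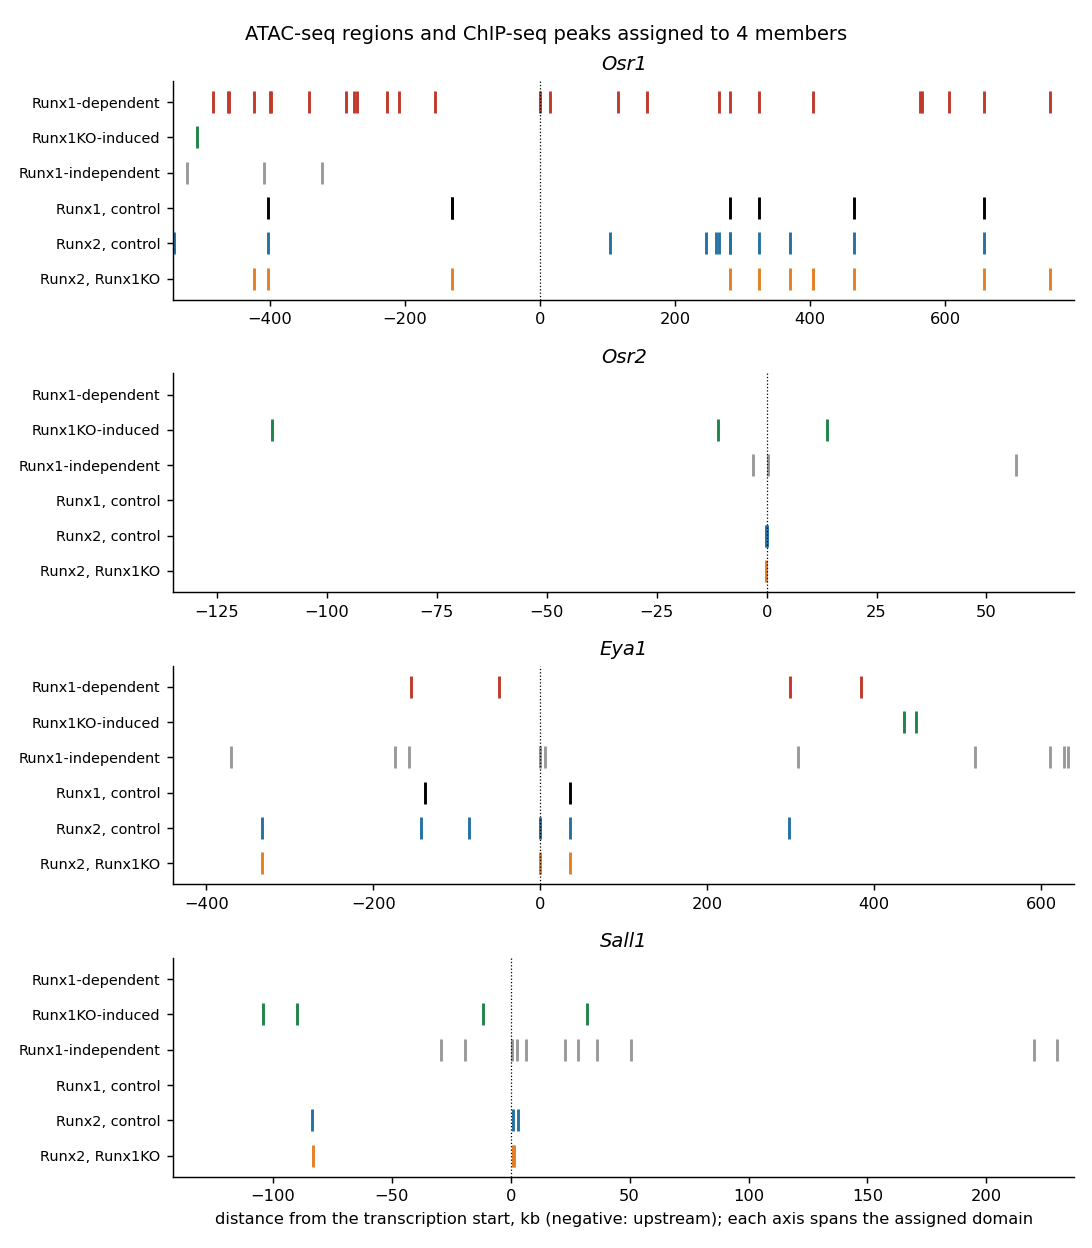
Middle of each assigned ATAC-seq region (3 upper rows of a panel) and ChIP-seq peak (3 lower rows) by distance in kb from the transcription start, upstream being negative, for Osr1, Osr2, Eya1 and Sall1. Osr1 has 26 ticks in the Runx1-dependent row, while Osr2 and Sall1 have none there and 3 and 4 in the Runx1KO-induced row.

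Osr2, the member that rose in Runx1KO cells, had regions of the other classes. It lies on chromosome 15 (35225853 to 35233059, plus strand, ENSMUSG00000022330.4), between Stk3 and Vps13b. It had no Runx1-dependent region, 3 Runx1KO-induced regions at -112.5, -11.0 and 13.8 kb from the start, and 3 Runx1-independent ones, of which 1 covers the start. No Runx1 peak was assigned to it. Runx2 peaks lay at the start in control cells, with 5.24 and 4.77-fold enrichment at -0.2 and 0.1 kb, and the upstream one was also called in Runx1KO cells with 4.89-fold. The neighbour Stk3, a Hippo pathway kinase, differed by -0.24 (adjusted p = 0.00743) and Vps13b by 0.26 (adjusted p = 0.00861), both within 2-fold.

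The region nearest to the Osr2 start overlaps its UTR and is not printed. The 2 nearest Runx1KO-induced regions, chosen after the values were seen, are shown as windows around the middle of the region because the Zeb motif is the one most Runx1KO-induced windows share. It was found in 62.7% of all Runx1KO-induced windows, 33.3% of Runx1-independent and 18.7% of Runx1-dependent ones.
Osr2 -11.0 kb, chr15:35214658-35214957: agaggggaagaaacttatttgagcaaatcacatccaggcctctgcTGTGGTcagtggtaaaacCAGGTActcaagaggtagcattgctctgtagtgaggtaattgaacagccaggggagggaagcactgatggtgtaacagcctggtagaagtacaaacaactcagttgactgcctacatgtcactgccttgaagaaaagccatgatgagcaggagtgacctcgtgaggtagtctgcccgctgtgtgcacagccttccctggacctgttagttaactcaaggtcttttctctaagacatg
Osr2 +13.8 kb, chr15:35239524-35239823: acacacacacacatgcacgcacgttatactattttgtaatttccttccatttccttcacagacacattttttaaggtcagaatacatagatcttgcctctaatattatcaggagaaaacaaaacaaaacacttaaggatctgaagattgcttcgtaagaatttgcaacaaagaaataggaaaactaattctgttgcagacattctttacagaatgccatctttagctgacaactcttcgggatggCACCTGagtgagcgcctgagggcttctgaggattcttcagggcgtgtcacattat
The upstream window holds 1 TGTGGT and 1 CAGGTA, and the downstream window 1 CACCTG, which is CAGGTG on the minus strand. The third Runx1KO-induced window of Osr2 holds no Zeb match, so that 2 of 3 have one. Osr2 RNA itself fell in ZebDKO cells. Accessibility in ZebDKO cells was not analysed here.

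Eya1, on chromosome 1 (14159035 to 14300281, minus strand, ENSMUSG00000025932.7), had 16 ATAC-seq regions in a domain of 1081 kb. Of these, 4 were Runx1-dependent, at -155.0, -49.9, 298.7 and 384.1 kb from the start, 2 were Runx1KO-induced and 10 Runx1-independent. Runx motifs were in 3 of the 4 Runx1-dependent windows, where 35.5% of all such windows held one. Both Runx1 peaks of Eya1 lay outside any ATAC-seq region. The start of Eya1 was covered by a Runx1-independent region with a Runx2 peak in control (5.62-fold) and Runx1KO cells (3.86-fold).

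Sall1, on chromosome 8 (91551147 to 91568061, minus strand, ENSMUSG00000031665.6), had no Runx1-dependent region, 4 Runx1KO-induced regions and 11 Runx1-independent ones. All 4 Runx1KO-induced windows held both a Zeb and an AP-1 match, where 62.7% and 33.3% of all Runx1KO-induced windows held one. Six4, on chromosome 12 (74201246 to 74214401, minus strand, ENSMUSG00000034460.6), had only Runx1-independent regions, 4 in number, 3 of them at or just inside its start, and 2 Runx2 peaks in its intron in both control and Runx1KO cells.

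**Figure D5:**
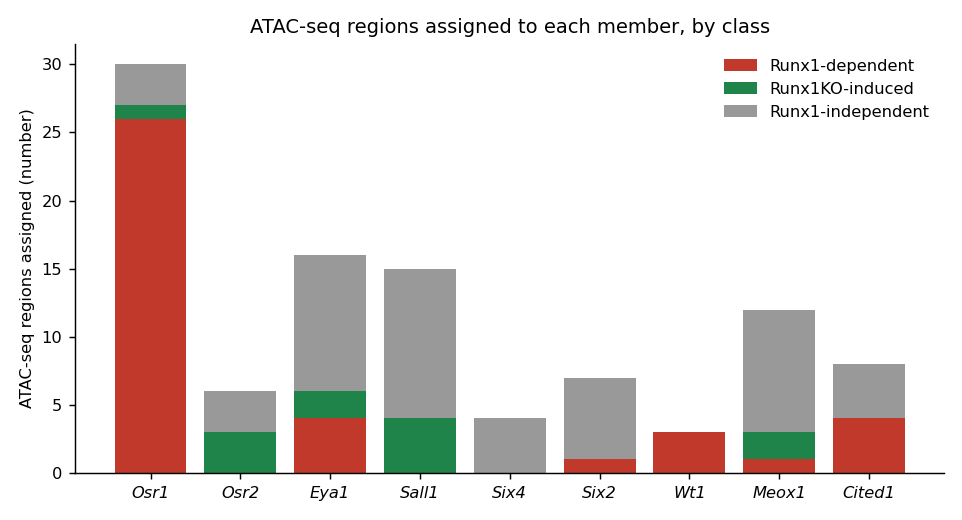
Number of ATAC-seq regions assigned to each member (vertical axis) stacked by class. Osr1 has 26 Runx1-dependent regions of 30, Eya1 4 of 16, and Osr2, Sall1 and Six4 have none.

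The absent members also had regions in their domains. Wt1, on chromosome 2, had 3 Runx1-dependent regions and no others, at -17.6, 41.8 and 80.5 kb from its start. All 3 windows held TGTGGT, which was in 35.5% of all Runx1-dependent windows. Cited1, on chromosome X, had 4 Runx1-dependent and 4 Runx1-independent regions, of which 7 lay in introns of its neighbour Hdac8, a deacetylase gene at 11.0 to 12.4 TPM in control and 6.8 to 8.0 TPM in Runx1KO libraries. Meox1, on chromosome 11, had 1 Runx1-dependent, 2 Runx1KO-induced and 9 Runx1-independent regions. Six2, on chromosome 17, had 1 Runx1-dependent and 6 Runx1-independent regions. No Runx1 or Runx2 peak was assigned to Wt1, Cited1 or Six2.

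Genes related to the members were counted from fixed lists, which were chosen with earlier results of these data known. Over all genes tested, 7.91% were called higher and 5.1% lower in Runx1KO cells, and 7.48% and 7.27% in ZebDKO cells. Of 13 paralogs, 7 were tested in the Runx1KO comparison, where 3 were called lower and the other 4 were not called, with a median log2 change of -0.76 beside -0.06 over all genes tested. Of the 3, 2 are coactivators like Eya1 itself, Eya2 at -1.65 (adjusted p = 2.9e-07) and Eya4 at -1.86 (adjusted p = 3.46e-06), and the other was the zinc finger gene Sall2 at -1.2 (adjusted p = 4.2e-06). Eya2 went from 29.9, 30.2 and 30.4 TPM to 8.3, 9.4 and 9.2 TPM, and was at 21.4, 21.1 and 22.7 TPM in ZebDKO libraries.

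In ZebDKO cells 8 paralogs were tested, of which 1 was called higher and 2 lower, with a median of -0.49 beside -0.18. Eya4 was lower by a log2 change of -1.93 (adjusted p = 1.79e-06). In this comparison Eya4 passed the filter only through the control libraries, and Six3 only through the ZebDKO libraries. Six3, the neighbour of Six2 at 74.6 kb, rose by 3.5 on the log2 scale (adjusted p = 2.43e-07), from 0, 0.1 and 0.2 TPM to 10.3, 11 and 13.1 TPM, while Six2 stayed at 0 to 0.2 TPM in these libraries.

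Of 23 partners and cofactors of the members, among them Pbx, Tle, Dach and NuRD genes, 20 were tested. In Runx1KO cells 1 was called, Basp1, a cofactor of Wt1, at -1.02 (adjusted p = 6.23e-07), and it missed the 2-fold limit at -0.96 under median-ratio scaling, at -1 under quantile normalization and at -0.99 without control replicate 1. In ZebDKO cells Basp1 differed by 0.91 (adjusted p = 1.7e-06), within the 2-fold limit, and was called at 1.11 under median-ratio scaling, and the other 19 were not called.

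Other genes of the metanephric mesenchyme moved in both directions. Of 32 listed, 15 were under 1 TPM in all libraries. In Runx1KO cells 15 were tested, of which 6 were called higher and 4 lower, with a median of 0.58 beside -0.06. Gdnf, the ligand with which the mesenchyme attracts the ureteric bud, fell from 13.1, 11.4 and 13.6 TPM to 0.1 TPM in each Runx1KO library (log2 change -3.64, adjusted p = 5.95e-08). It was at 38.6, 41.4 and 39.4 TPM in ZebDKO libraries, a rise of 1.58 (adjusted p = 1.03e-06). Slit2, a guidance ligand, was at 5.7 to 6.5 TPM in control and 0.1 TPM in Runx1KO libraries (log2 change -2.71, adjusted p = 2.04e-07). Fgf9, a ligand that maintains nephron progenitors, and Tmem100 were listed at 0 in all control libraries and at 6.0 to 6.4 and 4.3 to 6.0 TPM in Runx1KO libraries, and both were called higher. In this comparison Fgf9 and Tmem100 passed the filter only through the Runx1KO libraries, and Gdnf and Slit2 only through the control libraries. Their calls were thus close to fixed. Npnt, the ligand of the integrin Itga8, rose by 2.29 (adjusted p = 7.57e-08).

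In ZebDKO cells 13 of these genes were tested, 4 called higher and 2 lower, with a median of -0.18 equal to that of all genes. Wnt4, which drives the turn of mesenchyme to epithelium, fell from 21.2, 21 and 22.2 TPM to 2.5, 2.5 and 2.9 TPM (log2 change -2.63, adjusted p = 7.42e-08), and was at 34.1, 34.7 and 34.1 TPM in Runx1KO libraries. Npnt rose by 2.39 (adjusted p = 5.95e-08) and the RNA binding protein gene Lin28b by 1.79 (adjusted p = 2.92e-06).

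Markers of other kidney cell types also differed between groups, and their part in the results above was not tested. The counts below stand beside 7.91% of all genes tested called higher and 5.1% lower in Runx1KO cells. In ZebDKO cells these shares were 7.48% and 7.27%. The summed level of 15 ureteric bud genes was 350.6 to 387.5 TPM in control, 2793.8 to 2895.5 TPM in Runx1KO and 1572.9 to 1622.6 TPM in ZebDKO libraries, and the keratin Krt8 made up most of it in both knockout groups, at 1.8 to 3.6, 2302.3 to 2393.5 and 1026.5 to 1086.7 TPM. In control libraries most of the sum came from Sox9, at 161.3 to 185.8 TPM, Hoxb7, at 67.1 to 74.8 TPM, and Emx2, at 51.5 to 58.0 TPM. The defining bud gene Ret was listed at 0 in all 9 libraries, and Wnt9b, Calb1, Gata3 and Cdh1 stayed under 1 TPM in all of them. Of this list, 4 of 10 tested genes were called higher in Runx1KO cells, and 3 of 9 higher and 1 lower in ZebDKO cells. Of 12 kidney stroma genes 8 were tested and 4 were called lower in Runx1KO cells. Among them were Ntn1, the actin gene Acta2 at -2.8 (adjusted p = 2.08e-07) and the proteoglycan gene Dcn at -1.7 (adjusted p = 1.5e-05). The summed level was 194.0 to 209.0 TPM in control, 77.6 to 85.9 TPM in Runx1KO and 151.4 to 154.5 TPM in ZebDKO libraries. Ntn1 had the largest fall in TPM of the list, from 75.5 to 80.5 TPM in control to 7.6 to 9.3 TPM in Runx1KO libraries. In ZebDKO cells 1 of 8 was called higher, Acta2 at 1.43 (adjusted p = 9.77e-07), and 2 lower. The stroma gene Foxd1 was at 88.6 to 97.0 TPM in control and 58.4 to 65.1 TPM in Runx1KO libraries. Of the 12 stroma genes, 4 stayed under 1 TPM in all libraries, among them Meis1 and Pdgfra. Of 15 renal vesicle genes 12 were tested in Runx1KO cells, 2 called higher and 2 lower. Dll1, a Notch ligand, rose by 3.71 (adjusted p = 7.56e-07) and the transcription factor gene Irx1 fell by 2.2 (adjusted p = 4.04e-08), while Pax8 was at 186.8 to 207.5 TPM in control and 222.4 to 236.7 TPM in Runx1KO libraries. In ZebDKO cells 4 of 12 were called higher and 3 lower. The summed level of the list was 792.3 to 822.1 TPM in control, 3074.1 to 3126.3 TPM in Runx1KO and 2036.1 to 2084.8 TPM in ZebDKO libraries. Most of this difference came from the secreted protein gene Wfdc2, at 174.2 to 176.0, 2399.6 to 2428.7 and 1373.8 to 1453.6 TPM, which rose by 3.78 in Runx1KO (adjusted p = 2.81e-10) and 3.01 in ZebDKO cells (adjusted p = 1.75e-09).

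Lists of other cell types were counted in the same way. The podocyte marker Nphs1 was listed at 0 in all libraries, and of 11 podocyte genes 5 were tested in Runx1KO cells, 2 called higher and 1 lower, and 4 in ZebDKO cells, 2 called higher. The podocyte list summed to 88.1 to 92.5 TPM in control, 144.2 to 150.3 TPM in Runx1KO and 81.7 to 88.5 TPM in ZebDKO libraries. Of 6 proximal tubule genes 4 were tested in Runx1KO cells and 1 was called lower, Lrp2, listed at 0 there, and of 5 tested in ZebDKO cells 1 was called higher. The proximal tubule list summed to 463.4 to 501.1, 599.6 to 633.7 and 338.8 to 367.5 TPM, most of it from the water channel Aqp1, at 436.6 to 473.7 TPM in control libraries. Endothelial genes, 7 in number, summed to 5.8 to 7.4 TPM in control, 1.0 to 1.4 TPM in Runx1KO and 4.3 to 6.4 TPM in ZebDKO libraries, and of 2 tested, 2 were called lower in Runx1KO and 1 in ZebDKO cells. Immune genes, also 7, summed to 6.6 to 9.1, 33.2 to 36.1 and 39.1 to 40.8 TPM, and of 3 tested, 1 was called higher in Runx1KO and 2 in ZebDKO cells. The receptor gene Csf1r was called higher in both, at 4.19 in Runx1KO (adjusted p = 2.16e-07) and 3.92 in ZebDKO cells (adjusted p = 2.66e-07). Most of the difference in the immune sum came from Csf1r, at 0.4 to 1.0, 28.8 to 30.5 and 23.1 to 26.1 TPM. Cd79a was at 4.1 to 5.8, 2.2 to 3.3 and 11.4 to 14.6 TPM. The other immune genes Ptprc, Adgre1, Cd3e and Itgam, 4 of the 7, stayed under 1 TPM in all 9 libraries.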

How the data were processed

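RNA-seq, ATAC-seq and ChIP-seq tables were used as deposited. The authors trimmed reads with Trim Galore, checked them with FastQC, aligned them with STAR to the mouse build mm9, removed duplicates with sambamba, counted reads on RefSeq genes with featureCounts 1.6.2 and deposited TPM, given to 1 decimal for the 9 libraries and to 2 decimals in a further table of 6 libraries. The gene lengths and strand setting behind TPM are not given in the sources used here, and the methods give only a lower limit of reads per sample. TPM does not keep the number of reads behind a value, so no counting interval is given. Without a known strand setting, reads of a gene and of an antisense partner cannot be told apart. For ChIP-seq the authors pooled replicates, called peaks with MACS2 and took out those that met background peaks of Runx1 ChIP-seq in Runx1KO cells. Each peak was deposited with a ratio (fold enrichment at the summit) and −log10 q. The methods state a q limit of 0.01 and broad peaks, whereas the lists have narrow-peak columns and a largest q of 0.0494. With q under 0.01, Runx1 peaks were assigned to 2 members in place of 3. ATAC-seq regions were kept by the authors when found in at least 2 of 3 replicates and were sorted by a 2-fold limit. Columns of the authors' own ATAC-seq comparisons (fold changes and p-values) were not used.

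Libraries were grouped by their labels. TPM was taken as log2(TPM + 1), so that fold changes of low genes are understated, and tested with limma 3.58.1 (trend, R 4.3.3), using the 6 libraries of each comparison, genes that reached 1 TPM in 3 or more of these, and Benjamini-Hochberg adjustment. A gene near 0 in all libraries of 1 group passed the filter of 1 TPM only through the other group. Its call was then close to fixed, and counts of calls include such genes. The fit was tested on simulated data. Regions were assigned with GENCODE protein-coding gene positions on mm9, and sequences were read from the mm9 genome with pysam 0.24.0 in windows of 300 bp. An overlap was at least 1 bp. Replicate numbers were checked for pairing, and correlations of the deviations of libraries with the same number ran from -0.0495 to 0.0399, so no block was used. Alternatives were another pseudocount (0.1 or 0.5), filter, scaling, fit, fold limit, table or rule of assignment, and leaving out each library.

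The members and lists were chosen with earlier results of these data known. Named genes were the members, the targeted genes, up to 4 called genes of largest change for each of 10 lists and comparison with control, the 3 genes of most similar profile for each called member, and the neighbours of members, which were added. Printed regions were the one under the Runx1 peak of highest fold, or else that peak, or else the ATAC-seq region nearest to the start. At Osr1 windows on the middle of the Runx1 peaks are printed in place of windows on the middle of the regions, and were added. One gene of the paralog list and 1 region that met these rules are not reported here. Genes outside this rule (Pax2, Hoxa11, Foxd1, Pax8, Ret, Nphs1, Krt8) were named as markers. Others (Sox9, Hoxb7, Emx2, Wnt9b, Calb1, Gata3, Cdh1, Aqp1, Foxc2, Hoxd11, Crym, Uncx, Meis1, Pdgfra, Ptprc, Adgre1, Cd3e, Itgam) were named after their values were seen.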

Additional observations from a re-analysis of the deposited data

Results flagged for a closer look

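Of the members, 3 differed between the Runx1KO and ZebDKO lines, by the direct limma test of Runx1KO against ZebDKO libraries. An effect of the clone and one of the genotype cannot be told apart here. The difference on log2(TPM + 1) was -3.78 for Osr1 (adjusted p = 4.36e-08), 3.72 for Osr2 (adjusted p = 4.3e-07) and -1.39 for Eya1 (adjusted p = 6.81e-07). In each of the 3, all Runx1KO libraries lay on the same side of all ZebDKO libraries, as they did for 81.7% of the genes tested. For Osr2 the values against the shared control libraries had opposite signs, 2.48 and -1.23.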

How the results depend on the processing

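The calls on Osr1, Osr2 and Eya1 in Runx1KO against control, on Osr1 and Osr2 in ZebDKO against control, and on all 3 in Runx1KO against ZebDKO kept their direction and stayed past both limits under every alternative run. The log2 change ran from -7.07 to -4.88 for Osr1, 2.43 to 2.58 for Osr2 and -1.45 to -1.27 for Eya1 in Runx1KO cells, and from -1.86 to -1.62 for Osr1 and -1.41 to -1.05 for Osr2 in ZebDKO cells. With a replicate block the calls on members stayed at 3, 2 and 3, and all genes called were 1039 higher and 669 lower, 976 and 944, and 1207 and 863 in the 3 comparisons. The numbers name libraries only, since the pairing check found no shared deviation.

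Leaving out 1 library gave 1018 to 1041 higher and 660 to 681 lower genes for Runx1KO, 961 to 981 and 930 to 993 for ZebDKO, and 1175 to 1247 and 847 to 879 for the direct comparison. A filter of 5 TPM, which tests fewer genes, left 442 lower in Runx1KO against control and 566 in Runx1KO against ZebDKO. A limit of 1.3-fold gave 2413 higher and 2444 lower genes with 3 members called, 2244 and 4502 with 4 members, and 4376 and 2404 with 5 members. Members with a Runx1KO-induced region were 3 with regions within 100 kb of the start and 3 with the nearest start. Under both of these rules Osr1 kept 2 of its 26 Runx1-dependent regions and Eya1 1 of its 4. With TPM given to 1 decimal, the values of Six2, Wt1, Meox1 and Cited1 under 1 TPM could not be ordered.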
